A study of Mus musculus with 6 samples.

Results

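The genes described are 49 mouse genes of the complement and blood coagulation systems, 21 of complement and 28 of clotting and clot lysis, set by a fixed list of names. Their probes were those whose gene symbol on the platform, brought to its current name, was on the list. A probe was found for 48 of the 49, namely all 21 complement genes and 27 of the 28 clotting genes, and no probe carried the name of Fga, the fibrinogen alpha chain. These 48 are part of 16637 genes with a named probe on the array, and they were read by 54 of its 29922 probes. A single probe read 43 of them, 2 probes read C6, Kng1, Serpinf2 and Tfpi, and 3 probes read C1ra, which has a near-identical copy, C1rb, so that its values are uncertain.

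Irradiated male FVB mice aged 6 to 8 weeks had received 1 dose of 8.5 Gy of X-rays over the whole body and gave RNA from brain, liver and intestine 3 h later, and untreated males of the same strain gave the same 3 organs. All mice, untreated ones included, carried a luciferase transgene under a promoter that responds to NF-κB. The deposited values are 1 column per organ and treatment, 6 in all. The study's methods give 6 replicates, each from a different mouse, but whether a column is 1 array or a summary over several mice is not stated. No spread between replicates and no test could therefore be computed from these columns, and every value below describes them. RNA was taken from whole organs, in which fewer cells of a type and less RNA per cell cannot be told apart.

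Complement is a set of plasma proteases, receptors and pore-forming proteins that marks and lyses microbes. Antibody and the C1 complex start the classical pathway, mannose-binding lectins start the lectin pathway, and both meet the alternative pathway at C3. Coagulation is another protease cascade, in which tissue factor or the contact system leads through prothrombin to fibrin, with anticoagulants and the plasmin system holding it in check. Hepatocytes make most of the soluble proteins of both systems, while macrophages make C1q, endothelium makes thrombomodulin and von Willebrand factor, and adipocytes make factor D.

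Values are background-subtracted spot intensities on a linear scale. Brain had a value for 27017 of the 29922 probes, liver for 28395 and intestine for 29781. The median intensity was 103 in both brain columns, 54 in both liver columns, and 64 in irradiated and 64.5 in untreated intestine. The median log2 ratio of irradiated to untreated intensity over all genes was 0.02 in each organ. Organ labels were set beside marker genes, counting those with a mean at or above the organ's median. Brain had 9 of 11 measured brain markers there, beside 9099 of all 15662 genes. Liver had all 25 hepatocyte markers, beside 9394 of 16118 genes. Intestine had all 11 enterocyte markers, beside 10036 of 16595 genes. Each list had a smaller share in the other organs. Intestine had 18 of 25 hepatocyte and 4 of 11 brain markers there. Liver had 6 of 10 brain and 2 of 11 enterocyte markers, and brain had 10 of 24 hepatocyte and 1 of 8 enterocyte markers. Many genes of any kind reach the median, so these counts alone do not establish a label. A gene was called higher or lower past 1.8-fold, the threshold of the study's methods. With no mark of detection in the values, the text gives a single gene's fold or log2 ratio only where both columns reached their own median. Otherwise both intensities stand alone.

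Liver held the highest levels of most of these genes. The organs were normalized separately, so levels are compared as percentiles within each organ, where 100 is the brightest probe. Complement probes had a median percentile of 96.8 in liver, 71.5 in intestine and 45.9 in brain, and clotting probes had 91.0, 55.1 and 33.9 in the same order of organs. The percentile was highest in liver for 19 of 24 complement probes and 21 of 30 clotting probes. Intestine ranked first for 2 complement and 7 clotting probes, and brain for 3 and 2. Fibrinogen beta, Fgb, read 55882 in irradiated and 48960.5 in untreated liver, rank 2 among irradiated and rank 6 among untreated liver probes. C8b, a chain of the pore-forming C8 protein, was the exception in pattern, at 8544 in irradiated and 9946 in untreated brain, 22088 in irradiated and 19563.5 in untreated liver, and 11360.5 in irradiated and 9665 in untreated intestine. Its percentile was above 99 in each organ, unlike C8a and C8g, the other chains of the same protein, which were bright only in liver. C8b was read by a single probe, and whether that probe reads C8b alone was not tested, so its level in brain and intestine is uncertain.

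**Figure D1:**
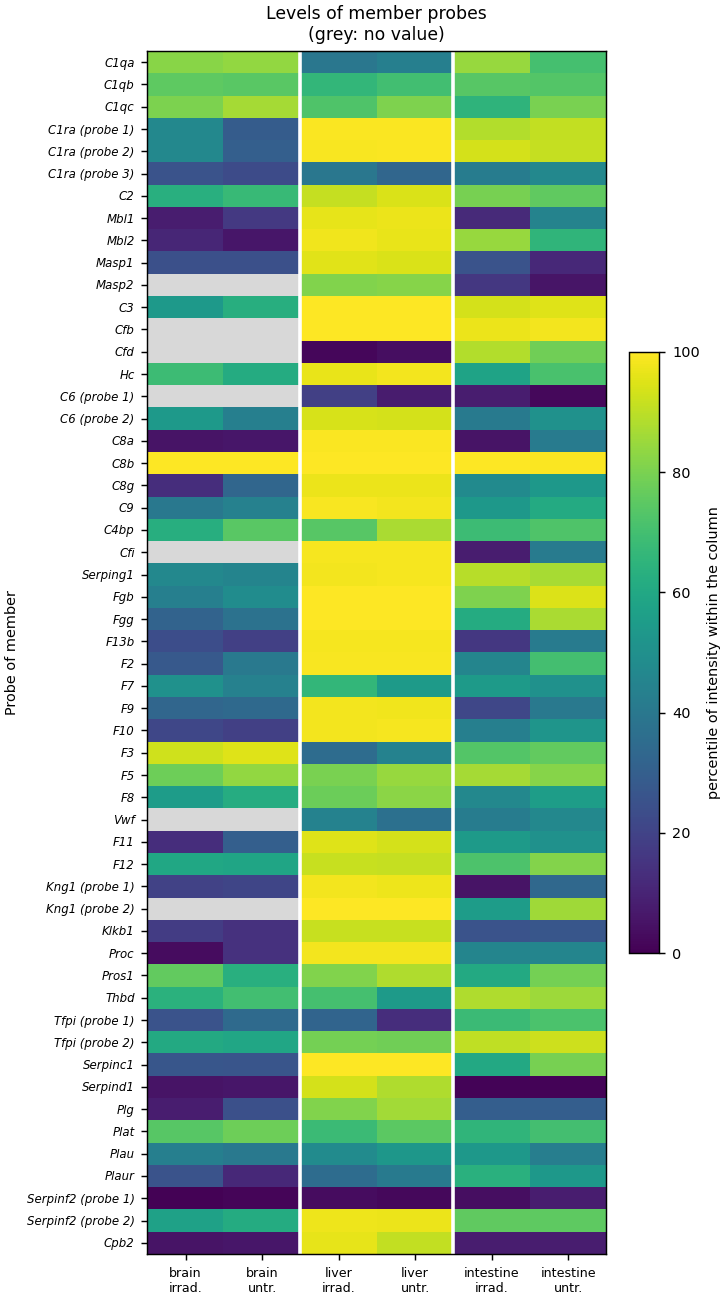
Levels of the 54 probes in the 6 columns, as the percentile of intensity within each column, with the irradiated column left of the untreated one in each organ and rows grouped by role. Most rows are bright in the liver columns, C8b is bright in all 6, and grey cells have no value.

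In all, 12 members passed the threshold, each in 1 organ. How many of all genes passed it in more than 1 organ was not counted. With so few calls, no organ specificity is read from this. In brain none of 17 measured complement genes and none of 26 clotting genes passed it, where 0.447% of all genes were higher and 0.919% lower. In liver 2 of 21 complement genes were lower and 2 of 27 clotting genes were higher, against 1.51% of all genes higher and 2.53% lower. In intestine 3 of 21 complement genes were higher and 5 of 27 clotting genes lower, against 1.72% of all genes higher and 2.79% lower. Median log2 ratios of complement genes were -0.07 in brain, -0.07 in liver and -0.06 in intestine. Those of clotting genes were -0.04, -0.01 and -0.18 in the same order, each beside 0.02 for all genes. Of the 49 listed genes, 37 passed the threshold in no organ, Fga among them with no probe. Members for which no value is given in an organ below were within the threshold there or had no value. With 50 added to every intensity, 5 of the 12 calls remained, those of Hc and Cpb2 in liver and of Mbl2, Fgb and Fgg in intestine.

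**Figure D2:**
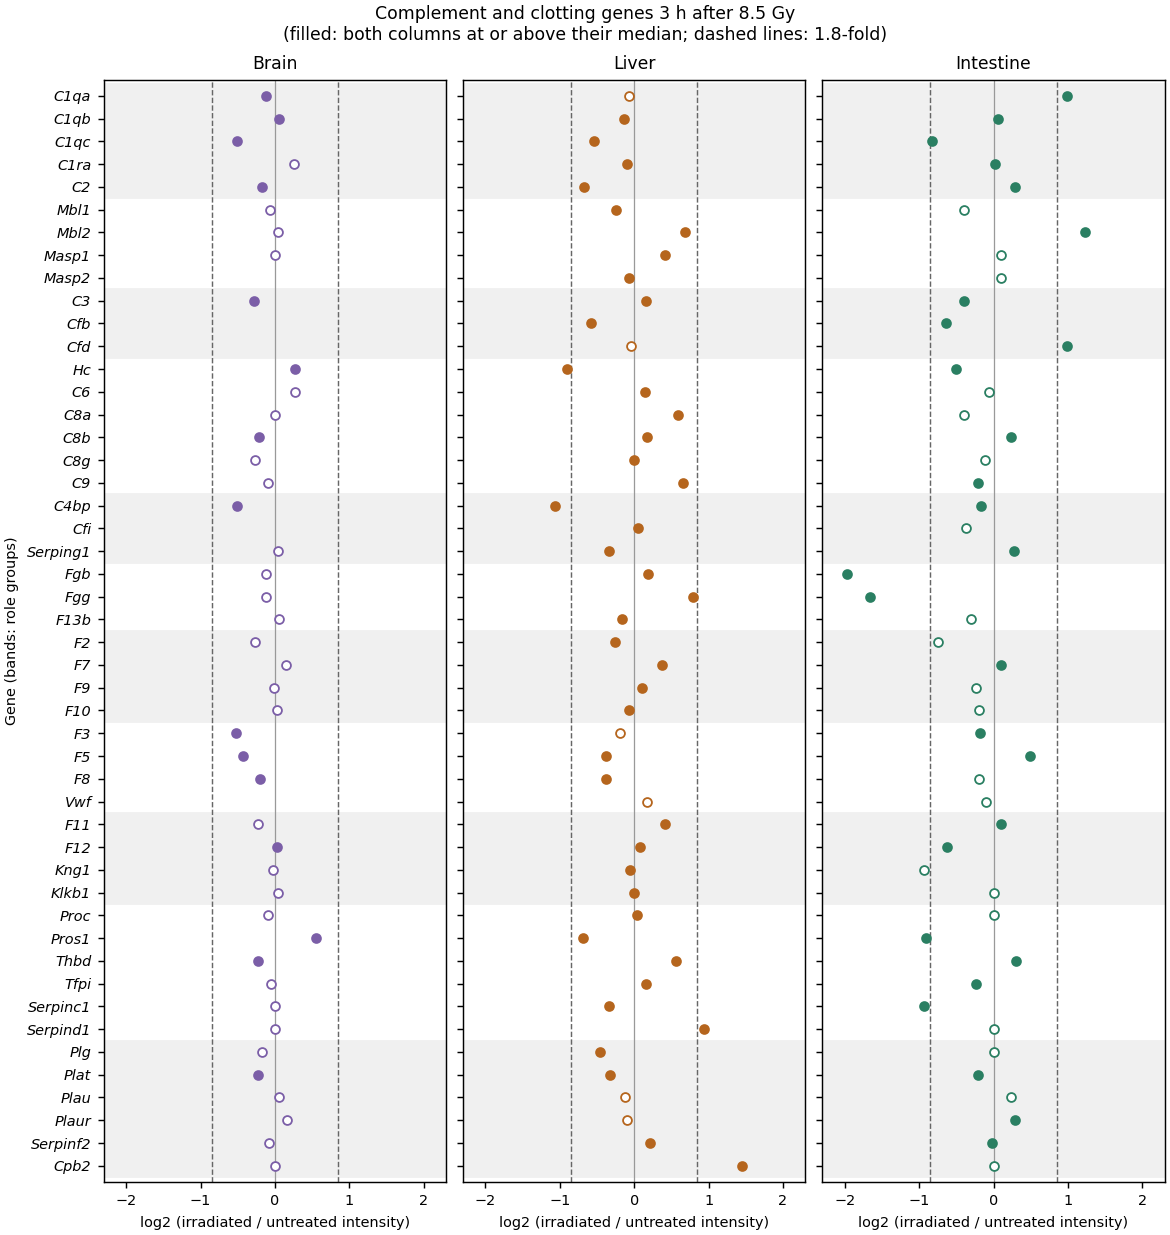
Log2 ratio of irradiated to untreated intensity for the 48 measured genes in brain, liver and intestine, with bands for the role groups, dashed lines at 1.8-fold, and filled points where both columns reached their median. Brain points stay inside the lines, Cpb2 and Serpind1 lie to the right and C4bp and Hc to the left in liver, and in intestine Fgb and Fgg lie farthest left.

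The classical pathway was read by C1qa, C1qb and C1qc, the chains of the recognition protein C1q, and by C1ra and C2, its proteases. C1qa was 204.5 in irradiated and 103 in untreated intestine, a rise of 1.99-fold, 263.5 in irradiated and 287 in untreated brain, and 46 in irradiated and 48.5 in untreated liver, where both were below the median. Neither of the other chains passed the threshold. C1qb was 118 in irradiated and 113 in untreated intestine. C1qc was 87 in irradiated and 154 in untreated intestine, a log2 ratio of -0.82 with a sign opposite to that of C1qa. It was inside the threshold, and past it once the intensity trend was removed. The 3 chains form a single protein, and their genes lie side by side on chromosome 4 in the mouse annotation. In brain, where microglia make C1q, C1qc was 240.5 in irradiated and 344 in untreated, and C1qb was 196 in irradiated and 188.5 in untreated. P2ry12, a microglial marker, was lower there, at 299.5 in irradiated and 665.5 in untreated, the only one of 17 macrophage markers past the threshold in brain. Macrophage markers in intestine did not move together: of 19 measured, Ctss was higher (3013 in irradiated, 1298.5 in untreated) and Lyz2 (256 in irradiated and 901 in untreated) and Adgre1 (113 in irradiated and 232.5 in untreated) were lower, with summed levels of 8159.09 in irradiated and 6842.59 in untreated intestine and a median log2 ratio of 0.04. Of all genes in intestine 1.72% were higher and 2.79% lower. The part of the macrophage markers in the C1q values was not tested. C2 was 305.5 in irradiated and 489.5 in untreated liver, a log2 ratio of -0.68. C1ra, on its brightest liver probe, was 5087 in irradiated and 5577 in untreated. Its probes pointed different ways in intestine, with 286 in irradiated and 353 in untreated on one and 523 in irradiated and 379.5 in untreated on another, and the third, at 58 in irradiated and 62 in untreated, was below the median there.

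Of the lectin pathway, Mbl2, a mannose-binding lectin secreted by the liver, had the largest rise of any complement gene. Its intensity was 206.5 in irradiated and 88 in untreated intestine, or 2.35-fold higher, and 1445 in irradiated and 897.5 in untreated liver, a log2 ratio of 0.69. In brain it was 64.5 in irradiated and 62.5 in untreated, both below the median. Mbl1, the sister lectin, was 45.5 in irradiated and 60 in untreated intestine and 872.5 in irradiated and 1032.5 in untreated liver, within the threshold in both. The proteases Masp1 and Masp2, which the lectins activate, were within the threshold wherever measured. In liver Masp1 was 668.5 in irradiated and 502.25 in untreated, and Masp2 was 136.5 in irradiated and 143 in untreated.

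C3, on which all 3 pathways converge, was 22420.5 in irradiated and 20145.5 in untreated liver, 517 in irradiated and 680.5 in untreated intestine, and 111 in irradiated and 134.5 in untreated brain. Factor B, Cfb, the protease partner of C3 in the alternative pathway, was 8543 in irradiated and 12763 in untreated liver, and 1252 in irradiated and 1946.25 in untreated intestine, with log2 ratios of -0.58 and -0.64. Factor D, Cfd, cuts factor B, and its level was 281 in irradiated and 141.5 in untreated intestine, 1.99-fold higher. In liver Cfd was 31 in irradiated and 32 in untreated, near the lowest values there, and it had no value in brain. Cfd is also known as adipsin, a product of fat cells, and of 14 adipocyte markers measured in intestine Cd36 (799 in irradiated, 351.5 in untreated) and Cidec (308.5 in irradiated and 160.5 in untreated) were higher and none lower. Of the 14, 7 lay above 0, 6 below and 1 at 0, with a median log2 ratio of 0.08, where 1.72% of all genes were higher and 2.79% lower. The summed level of the list was 4151.37 in irradiated and 3121.03 in untreated intestine, and Adipoq, the defining adipocyte hormone, was 104 in irradiated and 85.5 in untreated. Their part in the rise of Cfd was not tested.

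Among the terminal components, which assemble the lytic pore, Hc fell in liver. Hc encodes C5, whose cleavage starts pore assembly, and it was 966.5 in irradiated and 1812.5 in untreated liver, 1.88-fold lower. In intestine it was 74.5 in irradiated and 106 in untreated, and in brain 156.5 in irradiated and 129.5 in untreated. The study's own mean fold changes place Hc otherwise, lower past the threshold in intestine and within it in liver. FVB mice are known to carry a defective Hc allele, and which allele this colony carries is not stated. The other terminal components were within the threshold in liver, with log2 ratios of up to 0.66 and none below 0. C9, the pore subunit, was 3160.25 in irradiated and 2004.5 in untreated liver, C8a was 6797 in irradiated and 4537.5 in untreated, and C8g was 1021.5 in irradiated and 1019.5 in untreated. C6 on its brighter probe was 486.5 in irradiated and 442.5 in untreated.

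Of the complement inhibitors, C4bp, which binds C4b and helps to inactivate it, was 98 in irradiated and 205.5 in untreated liver, 2.10-fold lower and the largest fall of a complement gene there. It was 97 in irradiated and 109.5 in untreated intestine and 133.5 in irradiated and 189.5 in untreated brain. Cfi, the protease that C4bp assists, was 2846.5 in irradiated and 2751 in untreated liver. Serping1, the inhibitor of C1 and of the contact proteases, was 1835 in irradiated and 2320.5 in untreated. The 250 bases before the start of the liver gene that fell most and of the gene that rose most in intestine are given below 5′ to 3′ on the gene's strand, from RefSeq on GRCm38.p6, with capitals where a searched motif occurs. C4bp lies at chr1:130661619-130661868 on the minus strand and Mbl2 at chr19:30232678-30232927 on the plus strand, each with its start site just inside the annotated gene.
C4bp: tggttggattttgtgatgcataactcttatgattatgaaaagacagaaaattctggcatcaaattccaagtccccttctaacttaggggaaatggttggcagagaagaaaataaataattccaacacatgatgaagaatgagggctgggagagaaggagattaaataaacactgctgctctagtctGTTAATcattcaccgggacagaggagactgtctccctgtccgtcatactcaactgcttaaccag
Mbl2: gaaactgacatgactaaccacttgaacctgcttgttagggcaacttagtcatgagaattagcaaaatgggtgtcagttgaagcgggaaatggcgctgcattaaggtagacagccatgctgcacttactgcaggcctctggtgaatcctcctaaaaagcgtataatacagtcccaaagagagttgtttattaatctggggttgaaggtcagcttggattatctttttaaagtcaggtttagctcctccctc
The capitals in C4bp mark GTTAAT, part of the HNF1 site, 64 to 59 bases before the start, and Mbl2 held none of the 6 motifs searched.

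Fibrinogen showed the largest differences of all 48 genes. Fibrinogen is built from alpha, beta and gamma chains, and thrombin turns it into fibrin. Fgb, the beta chain, was 159 in irradiated and 622 in untreated intestine, 3.91-fold lower. Fgg, the gamma chain, was 80 in irradiated and 253 in untreated intestine, 3.16-fold lower. Both chains thus fell in the same organ, and in these columns neither passed the threshold elsewhere. The study's own mean fold change for Fgg in liver was past the threshold, on the higher side. In liver Fgg was 35488.5 in irradiated and 20597 in untreated, a log2 ratio of 0.78 and 1.72-fold, just inside the threshold, and Fgb had a log2 ratio of 0.19. In brain Fgb was 92.5 in irradiated and 101 in untreated and Fgg was 78 in irradiated and 84.5 in untreated, all below the median. F13b, the carrier chain of the fibrin-crosslinking factor XIII, was 46.5 in irradiated and 57.5 in untreated intestine and 2261 in irradiated and 2534.5 in untreated liver.

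The fibrinogen genes form a cluster on chromosome 3, and the 250 bases before the start of Fgb (chr3:83049864-83050113, minus strand) and of Fgg (chr3:83007474-83007723, plus strand) are shown because these genes fell together in intestine. With them stands Cpb2 (chr14:75242037-75242286, plus strand), the clotting gene that rose most in liver.
Fgb: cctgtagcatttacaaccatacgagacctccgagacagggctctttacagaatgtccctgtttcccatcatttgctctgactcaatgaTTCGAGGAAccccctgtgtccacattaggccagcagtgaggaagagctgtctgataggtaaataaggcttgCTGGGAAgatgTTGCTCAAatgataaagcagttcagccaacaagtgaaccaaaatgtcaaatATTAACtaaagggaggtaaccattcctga
Fgg: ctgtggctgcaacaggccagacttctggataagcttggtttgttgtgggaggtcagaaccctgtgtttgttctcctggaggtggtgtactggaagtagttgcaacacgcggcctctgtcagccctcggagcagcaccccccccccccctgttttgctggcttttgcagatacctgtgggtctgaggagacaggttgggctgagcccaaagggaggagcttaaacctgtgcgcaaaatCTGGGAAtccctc
Cpb2: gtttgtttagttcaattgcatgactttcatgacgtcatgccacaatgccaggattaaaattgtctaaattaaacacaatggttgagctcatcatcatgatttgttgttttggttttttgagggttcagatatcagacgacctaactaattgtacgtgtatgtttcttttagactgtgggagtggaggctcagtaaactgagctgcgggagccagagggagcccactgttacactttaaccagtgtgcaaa
Capitals in Fgb mark a STAT motif (TTCNNNGAA) 162 to 154 bases before the start, the acute phase element CTGGGAA at 91 to 85, a C/EBP motif (TTGCNNAA) at 80 to 73, and the HNF1 letters GTTAAT, on the opposite strand, at 29 to 24. Fgg held CTGGGAA alone, 13 to 7 bases before the start, and Cpb2 held none. Promoters were found for 36 of the 49 genes, with 38 start sites, and both strands were searched for 6 motifs, of which TTCNNNGAA and CTGGGAA can overlap. TTCNNNGAA was in 15.8% of member promoters and 7.02% of all 32851 promoters, CTGGGAA in 15.8% and 9.1%, TTGCNNAA in 21.1% and 9.56%, and GTTAAT in 21.1% and 6.43%. CAAAGTCCA for HNF4 was in no member promoter and 0.384% of all, and GGGANTTTC for NF-κB was in no member promoter and 0.941% of all. These matches describe letters only and show no binding.

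Prothrombin and the vitamin K-dependent enzymes, the core proteases of clotting, stayed within the threshold everywhere. Prothrombin, F2, was 61 in irradiated and 102 in untreated intestine, with the irradiated column below its median, 3221.5 in irradiated and 3868.5 in untreated liver, and 74 in irradiated and 89 in untreated brain. F9 was 1751 in irradiated and 1628.25 in untreated liver, and F10 was 2087 in irradiated and 2195.5 in untreated. F7, which pairs with tissue factor, was 76 in irradiated and 58.5 in untreated there.

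Neither the initiator nor the cofactors of clotting passed the threshold in any organ. Tissue factor, F3, the cell-surface starter of coagulation, was 587 in irradiated and 842 in untreated brain, a log2 ratio of -0.52, and 113 in irradiated and 128 in untreated intestine, while in liver both columns, 43.5 in irradiated and 49.5 in untreated, were below the median. F5, the cofactor of the prothrombin-cleaving enzyme, was 215.5 in irradiated and 289 in untreated brain, 128 in irradiated and 166.5 in untreated liver, and 239.5 in irradiated and 170 in untreated intestine, with log2 ratios of -0.42, -0.38 and 0.49. F8, the cofactor of F9, was 114 in irradiated and 148.5 in untreated liver. Vwf, the carrier of F8 made by endothelium, was below the median in both organs where it had a value, at 49.5 in irradiated and 44 in untreated liver and 58 in irradiated and 62 in untreated intestine.

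In the contact system, Kng1, the kininogen that yields bradykinin, was past the threshold in intestine through 1 of its 2 probes. That probe was 71 in irradiated and 221 in untreated intestine, 3.11-fold lower, while the other was 43.5 in irradiated and 51.5 in untreated, both below the median, and the geometric mean of both, on which the call rests, was 55.6 in irradiated and 107 in untreated. Its probes ran opposite ways in liver, at 1872 in irradiated and 1257 in untreated on the dimmer and 13046 in irradiated and 20843.5 in untreated on the brighter. F12, which starts the contact pathway, was 108.5 in irradiated and 168 in untreated intestine, a log2 ratio of -0.63. Of the proteases it activates, F11 was 601.5 in irradiated and 450.5 in untreated liver, and Klkb1 was 326.5 in irradiated and 328 in untreated liver.

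The natural anticoagulants held calls in both liver and intestine, in opposite directions and on different genes. Serpind1, heparin cofactor II, a thrombin inhibitor, was 424.5 in irradiated and 222 in untreated liver, 1.91-fold higher, and was below the median in the other organs (40.5 in both intestine columns, 62.5 in both brain columns). Serpinc1, antithrombin, the main inhibitor of thrombin and F10, was 78 in irradiated and 149 in untreated intestine, 1.91-fold lower, and 14932.5 in irradiated and 18861 in untreated liver. In brain it was 73 in both columns, below the median. Pros1, protein S, the cofactor of activated protein C, was 79 in irradiated and 148 in untreated intestine, 1.87-fold lower. It also lay below 0 in liver (136.5 in irradiated, 221 in untreated) and above 0 in brain (199.5 in irradiated and 135.5 in untreated), within the threshold in both. Proc, protein C itself, was 1804 in irradiated and 1756 in untreated liver and 61 in both intestine columns. Thbd, the endothelial receptor that lets thrombin activate protein C, was 272.25 in irradiated and 220 in untreated intestine and 86.5 in irradiated and 58.5 in untreated liver. Tfpi, the inhibitor of tissue factor, was 348 in irradiated and 433 in untreated on its brighter probe in intestine.

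In clot lysis Cpb2 alone passed the threshold. Cpb2 removes the lysines of fibrin that bind plasminogen and so slows lysis. It was 825 in irradiated and 303 in untreated liver, 2.72-fold higher and the largest rise among the 48 genes in any organ, and it was below the median in intestine (44.5 in both columns) and brain (62.5 in both). Plg, the precursor of plasmin, was 136.5 in irradiated and 187.5 in untreated liver. Plat, a plasminogen activator, was 185 in irradiated and 216.5 in untreated brain, and Plau, the other one, was 68.5 in irradiated and 58 in untreated intestine, with the untreated column below its median. Plaur, the receptor of Plau, was 83.5 in irradiated and 68.5 in untreated intestine and below the median elsewhere. Serpinf2, the plasmin inhibitor, was 1328 in irradiated and 1021.5 in untreated liver on its brighter probe.

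**Figure D3:**
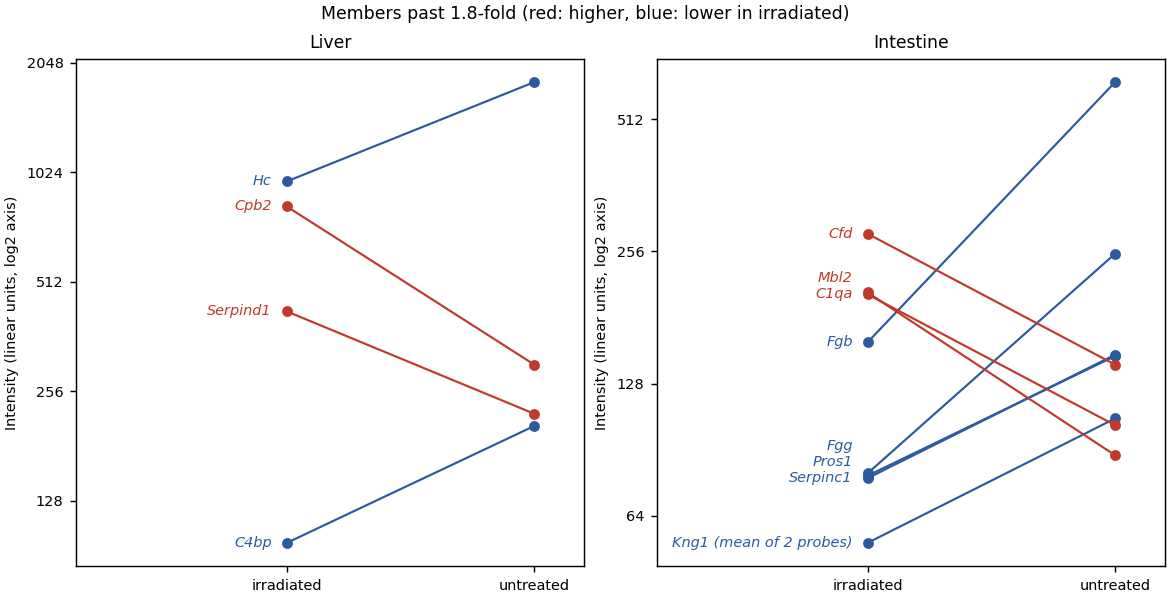
Intensity (log2 axis) of the 12 genes past 1.8-fold, with the irradiated column left and the untreated column right in each panel, red for higher and blue for lower, and Kng1 as the mean of its 2 probes. In liver Cpb2 and Serpind1 slope down toward untreated and Hc and C4bp slope up, and in intestine Fgb has the steepest line, 159 in irradiated against 622 in untreated.

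The clotting genes that were lower in intestine were mostly those with high levels in liver. Of the clotting genes 9 lay at or above the 95th percentile of untreated liver, an intensity of 579.95, a division made after the values were seen. In intestine 4 of these 9 were lower, none was higher, and 8 had a log2 ratio below 0, with Proc at 0 and a median of -0.74. Of the 9, only Fgb, Fgg and Serpinc1 had both intestine columns at or above the median, so the median of -0.74 rests on dim genes. Of the other 18, only Pros1 passed the threshold, and their median was 0. Among these, Cpb2, Serpind1, Klkb1 and Plg were below the median and read the same in both columns. The 12 complement genes above the same intensity had 1 higher and 0 lower, with a median of -0.29. The array held 829 other genes above it with a value in intestine. Of these, 5.19% were higher, 11.8% were lower, and the median was -0.06. Several of the dim members sat below the intestine median in 1 or both columns. Among genes with both columns at or above it, 3 of 14 complement genes were higher and 4 of 14 clotting genes lower, where 2.79% of 9412 genes were higher and 4.48% lower.

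Some hepatocyte markers were also lower in intestine. Of 25 measured, 0 were higher and 8 lower, 23 lay below 0, and the median log2 ratio was -0.28. Of all genes in intestine 1.72% were higher and 2.79% lower. Alb, serum albumin, was 268 in irradiated and 2175 in untreated intestine, 8.12-fold lower, and Mup3, a major urinary protein, was 1491 in irradiated and 7700 in untreated. Apoh, a phospholipid-binding plasma protein, was 81 in irradiated and 248.5 in untreated, and Ambp, the precursor of the inter-alpha-inhibitor light chain, was 92.5 in irradiated and 282 in untreated. The summed level of the 25 was 3467.83 in irradiated and 12473.7 in untreated intestine, and Mup3 and Alb held most of the untreated sum. In liver it was 274949 in irradiated and 277018 in untreated. There 2 of the 25 were higher and 4 lower, beside 1.51% and 2.53% of all genes. In brain, of 24 measured, Ttr was higher (428.5 in irradiated, 229 in untreated) and Alb lower (112 in irradiated, 290 in untreated), beside 0.447% of all genes higher and 0.919% lower. Ttr is also on a list of choroid plexus markers and is not specific to hepatocytes. It was the only one of 8 such markers measured in brain that passed the threshold. The median of the 24 hepatocyte markers in brain was -0.06. Ctrb1, a pancreatic acinar gene, was lower in intestine (315.5 in irradiated, 1193.5 in untreated) and Reg1 higher (663.75 in irradiated and 366 in untreated) among 13 such markers. Enterocyte markers had 1 of 11 higher, Mep1a (211.5 in irradiated and 111.5 in untreated), and summed levels of 77635.1 in irradiated and 74998.4 in untreated intestine. The part of these markers in the fall of Fgb, Fgg, Kng1, Serpinc1 and Pros1 was not tested, and with 1 column per group it cannot be told apart from a response to the dose.

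**Figure D4:**
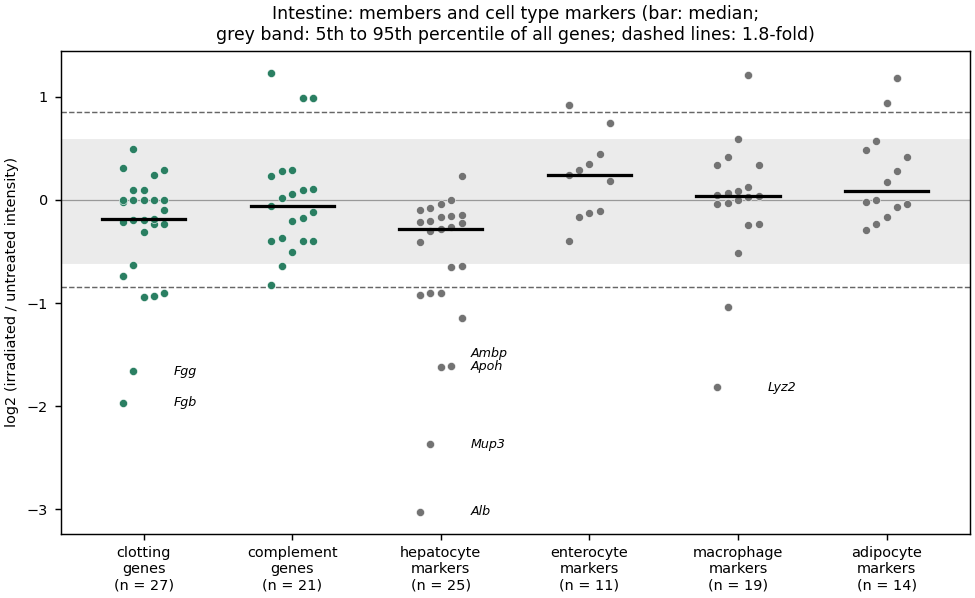
Log2 ratio of irradiated to untreated intensity in intestine for the clotting and complement genes (green) and 4 lists of cell type markers (grey), each point a gene, bars for medians, dashed lines at 1.8-fold and a grey band for the central range of all genes. Clotting genes and hepatocyte markers reach down to -1.97 and -3.02, while the lowest complement gene is C1qc at -0.82.

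Genes of the same systems outside the list were counted in the same way. The shares of all genes to set beside them were 0.447% higher and 0.919% lower in brain and 1.51% and 2.53% in liver. In intestine they were 1.72% and 2.79%. In brain none of 24 other complement genes and none of 31 other clotting genes passed the threshold. In liver 1 of 27 complement genes was higher, Cd93, a surface protein once described as a C1q receptor (117.5 in irradiated, 65 in untreated). Cd93 was only just past the threshold, and the median of the 27 was 0.16. Of 32 other clotting genes in liver 3 were higher and 2 lower, with a median of 0.16. S100a10, which with annexin A2 binds plasminogen at the cell surface, was 6349 in irradiated and 1432 in untreated liver, 4.43-fold higher. Serpina10, the inhibitor of F10 that acts with protein Z, was 6998 in irradiated and 3008 in untreated, or 2.33-fold higher, and Tfpi2, a protease inhibitor related to Tfpi, was 816 in irradiated and 385.75 in untreated. Hgfac, the activator of hepatocyte growth factor, was 244 in irradiated and 511 in untreated liver. Gp1ba, the platelet receptor for Vwf, was 77.5 in irradiated and 147 in untreated, and 2 of 8 platelet markers were lower there. Among 27 complement genes in intestine, Itgax, a chain of complement receptor 4, was higher and only just past the threshold (182 in irradiated, 101 in untreated). Clu, clusterin, an inhibitor of the lytic pore, was lower (208 in irradiated and 441.5 in untreated). Serpina1e, of the alpha-1 antitrypsin family made by the liver, was lower there too (133.5 in irradiated and 365.5 in untreated), as was Pzp (43.5 in irradiated and 89.5 in untreated), and none of 33 other clotting genes was higher.

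Liver acute phase genes were set beside the liver calls, since several clotting genes are counted among them. Of 20 measured, 10 were higher in irradiated liver and 0 lower, with a median of 0.82. Of all genes in liver 1.51% were higher and 2.53% lower. Saa3, serum amyloid A3, was 8844 in irradiated and 581.5 in untreated liver, Lcn2, an iron-binding secreted protein, was 5372.5 in irradiated and 123 in untreated, and Apcs, serum amyloid P, was 3966 in irradiated and 797 in untreated. C3, Fgb and Fgg, which are classed with them in textbooks, had log2 ratios of 0.15, 0.19 and 0.78 in the same columns. Macrophage markers in liver, which include those of Kupffer cells, had 0 higher and 3 lower of 19, with summed levels of 5274.52 in irradiated and 7258.31 in untreated liver. Vsig4, within the threshold, weighed heavily in these sums, at 1660 in irradiated and 2938.5 in untreated. It was also bright in brain (1689.5 in irradiated, 1321.5 in untreated) and intestine (1051.5 in irradiated, 1503.5 in untreated). In liver 0 of 18 endothelial markers passed the threshold. What part either list had in the liver values was not tested.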

How the data were processed

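RNA of brain, liver and intestine was labelled with Cy5 and hybridized to a single-colour oligonucleotide array. The authors made the deposited intensity values by subtracting the local background, leaving out control spots and spots of low signal-to-noise ratio, and normalizing in R, and the submitters' notes name limma with no version. All values are multiples of 0.25, and both columns of an organ have nearly the same distribution.

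Symbols were brought to current names (17558 kept, 3410 updated, 52 not held by the annotation). For each probe the log2 ratio, irradiated over untreated, came from the values as they stand and was averaged over a gene's probes, so a gene's level is a geometric mean. A call was 1.8-fold or more. The number of columns limits the precision, and no p-value, SD or interval was computed.

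Members and lists were chosen with earlier results of these data known. Named with full values were members past the threshold whose mean reached the organ's median, members the study listed (C1qa, Fgg, Hc and Serpinc1), and the member with the largest ratio in a role group with neither. From the other lists up to 4 genes each were named by size of change, and further genes for their role. Serping1 was counted with complement. Some lists share genes, such as Hpx and Itih4 (hepatocyte and acute phase), Ttr (hepatocyte and choroid plexus) and Gp1ba (clotting and platelet).

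The alternatives were division by each column's median, quantile normalization of all 6 columns, a lowess trend removed (fraction 0.3), probes below the 25th percentile left out, 50 added to each intensity, calls at 2-fold and at 1.5-fold, the brightest probe alone, and platform symbols as printed. Counting genes with both columns at the median or above was added after the values were seen. The computation of calls was tested on simulated data with planted differences, which does not show how many of the real calls would repeat. Python 3.11.15, numpy 2.4.6, pandas 2.3.3, statsmodels 0.14.6 and matplotlib 3.10.9 were used.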

Additional observations from a re-analysis of the deposited data

Results flagged for a closer look

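Fgg, the fibrinogen gamma chain, ran in opposite directions in different organs under the same contrast. On the log2 scale it differed by -1.66 in intestine and by 0.78 in liver (irradiated over untreated), each beyond 1.5-fold in size. With 1 column per organ and treatment the difference was not tested.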

How the results depend on the processing

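Counts past the threshold and median log2 ratios of complement and clotting genes gave 102 values recomputed under other settings. Of these, 89 stayed within the limits set for a change and 13 moved. A count stayed if it changed by at most 1.5-fold, and a median if it changed by at most 0.1. Brain counts were 0 at every setting and are among the 89. The 12 calls were followed apart from the 102, and no call turned its direction. A pseudocount of 50 left 1 liver complement gene (Hc), 1 liver clotting gene (Cpb2), 1 intestine complement gene (Mbl2) and 2 intestine clotting genes (Fgb, Fgg). A threshold of 2-fold left 1 (C4bp), 1 (Cpb2), 1 (Mbl2) and 2 (Fgb, Fgg) in the same order. At 1.5-fold there were 5 liver complement genes, with C9 and Mbl2 higher and C2, C4bp and Hc lower. There were also 4 liver clotting genes, with Fgg added above and Pros1 below, and 5 intestine complement genes, with C1qc and Cfb added below, and 7 intestine clotting genes, with F2 and F12 added below. The shares of all genes changed with the setting too. At 1.5-fold 4.93% were higher and 5.57% lower in liver, and 5.01% and 5.47% in intestine. At 2-fold they were 0.831% and 1.56% in liver and 0.958% and 1.98% in intestine. With the pseudocount they were 0.8% and 1.38% in liver and 0.988% and 1.75% in intestine. Quantile normalization of all 6 columns left 1 liver complement gene (C4bp). Leaving out low-signal probes moved the median of intestine complement genes to -0.17. Of the 12 calls, the pseudocount kept 5 and so did 2-fold, and quantile normalization kept 9, losing Hc and Kng1 with no value for Cfd. Quantile normalization used only probes with a value in all 6 columns. The Kng1 probe that was lower in intestine had no value in brain and was left out, so the loss of Kng1 reflects a dropped probe. Where both columns had to reach the median, 11 were kept and Kng1 had no value. That setting leaves the ratios themselves unchanged. All 12 held when columns were divided by their medians, the trend or low-signal probes were removed, the brightest probe was used, or symbols were kept as printed. Some of these settings could change few of the calls. Only Kng1 of the 12 had more than 1 probe, and C1ra was the only member with an updated symbol. Both liver columns had the same median. Removing the trend added C1qc as lower in intestine, for 4 complement genes there, where 3.27% of all genes were then lower. Within an organ no paired analysis was possible because each group has 1 column, and a fit over all organs with the organ as a block was not run. Dim probes limit what can be seen in brain and intestine, where many members lay below the median.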
